A study of Homo sapiens with 3 samples.

Results

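LNCaP cells that still expressed cell cycle genes after 1 week of enzalutamide were compared with cells of the same library that hardly did. LNCaP is a human prostate cancer cell line that depends on androgen, and enzalutamide is a drug that blocks androgen signaling. The library LNCaP-ENZ168 was made by Drop-seq, in which droplets join each cell with a barcoded bead and every captured mRNA molecule is counted by a unique molecular identifier (UMI), from LNCaP cells kept for 168 h in 10 µM enzalutamide. The series held 3 such libraries with 3000 cells in all, and the other two were VCaP parental, VCaP cells given 0.1% DMSO for 48 h, and VCaP-ENZ48, VCaP cells given 10 µM enzalutamide for 48 h. VCaP is another human prostate cancer line. Cells were selected on 12 genes, PCNA, MCM3, MCM4, MCM5, MCM7 and TYMS of DNA replication and TOP2A, MKI67, CENPF, UBE2C, CCNB1 and HMGB2 of the later cycle, by the share of a cell's UMIs that these genes took. Of 1000 LNCaP-ENZ168 cells in the file, 943 had at least 2000 UMIs, at least 300 genes and at most 25% mitochondrial UMIs. The 15% with the highest share, 141 cells, are called high-share cells, and the 50% with the lowest share, 471 cells, low-share cells. The other 331 kept cells were in neither band. Each group was 1 library, so nothing below could be tested against replicates, and the intervals given cover counting error only. No untreated LNCaP cells were analysed here, so the values describe differences among treated cells and not an effect of the drug.

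A dividing cell copies its DNA in S phase and separates the copies in mitosis, after the gap phases G1 and G2. Commitment to S phase releases the E2F transcription factors from the retinoblastoma protein family, and E2F targets include replication and nucleotide synthesis genes. Genes of G2 and mitosis come later, driven by the MuvB complex with B-MYB and FOXM1 through a promoter element called the cell cycle homology region. A cell that stops dividing, by contrast, keeps these genes repressed. In prostate cancer cells androgen signaling drives both secretory genes, such as the kallikreins, and entry into the cycle.

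The high-share cells were separated by a wide range of shares, and the low-share cells were nearly empty of the selecting genes. The share was 0.257 to 1.26% of a cell's UMIs in the high-share cells, with a median of 0.518%. It was 0 to 0.0438% in the low-share cells, with a median of 0.0226%, and 112 of these 471 cells had no UMI of any of the 12 genes. At the upper limit the last cell inside had a share of 0.257% and the first outside 0.256%, and at the lower limit these values were 0.0438% and 0.044%. The number of UMIs behind the share was 9 to 156 in a high-share cell (median 32) and 0 to 13 in a low-share cell (median 1). Neither limit fell in a gap, and a low-share cell at this depth can be one in which a few transcripts were missed.

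**Figure D1:**
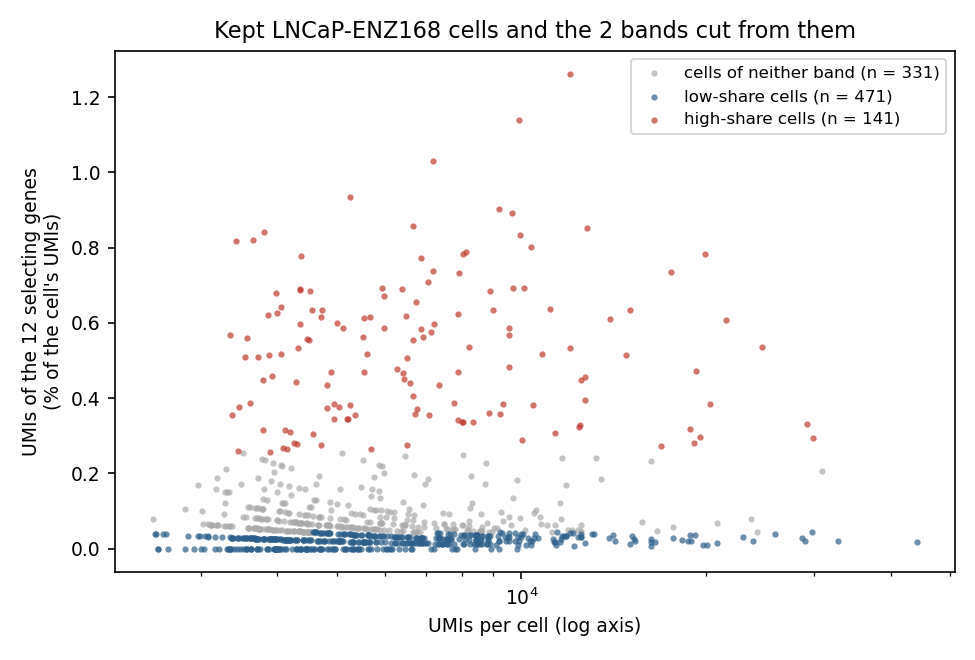
Each point is a kept LNCaP-ENZ168 cell, with its UMIs on a log axis and the percent of these UMIs from the 12 selecting genes on the y axis. The 141 high-share cells spread from 0.257 to 1.26% over nearly the whole range of depth, and the 471 low-share cells lie at or below 0.0438%.

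Depth and mitochondrial share moved with the bands. High-share cells had 3345 to 29832 UMIs (median 6572) and a median of 3040 genes, and low-share cells 2532 to 44071 UMIs (median 5500) and a median of 2587 genes. Mitochondrial transcripts took a median of 7.09% of the UMIs of a high-share cell and 8.71% of a low-share cell. In total 1130468 UMIs were summed over the high-share cells and 3212254 over the low-share cells. The last base of the barcode was not read in 38 of 141 high-share and 93 of 471 low-share cells, and 2 and 7 cells had a barcode 1 base away from another. LNCaP-ENZ168 shared 1 barcode with each VCaP library. Doublets were not identified. The part of these properties in the results was not tested, beyond the alternatives given with them.

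Levels are given as CPM, the UMIs of a gene summed over the cells of a band and scaled to a common total, and differences as the log2 ratio of CPM + 1 in high-share over low-share cells, with an exact 95% interval of the ratio of counts. The selecting genes show the size of the split, which the selection itself set. TOP2A, the topoisomerase that untangles chromosomes, was at 675 CPM in high-share and 10.6 CPM in low-share cells. MKI67, the gene of the Ki-67 antigen of dividing cells, was at 5.92 CPM in low-share cells, with a log2 ratio of 5.83. PCNA, the sliding clamp of DNA polymerase, was at 722 and 59.5 CPM. All 3 were low but not absent in low-share cells. HMGB2, a chromatin protein, was at 826 and 39.2 CPM, and TYMS, thymidylate synthase, at 267 and 11.2 CPM. Over all 12 genes the log2 ratios ran from 3.19 for MCM3 to 6.01 for UBE2C.

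The label of cycling cells was checked with the S and G2M genes of Seurat after the 12 selecting genes had been removed, which left 38 S and 49 G2M genes. All 141 high-share cells were called S or G2M, with 102 in G2M (72.3%, exact 95% interval 64.2 to 79.5%), 39 in S (27.7%, 20.5 to 35.8%) and 0 in G1 (upper bound 2.58%). Of the 471 low-share cells 419 were called G1 (89%, 85.8 to 91.6%), 41 S (8.71%, 6.32 to 11.6%) and 11 G2M (2.34%, 1.17 to 4.14%). The cells of neither band lay between, with 65.3% in G1, 20.2% in S and 14.5% in G2M. A phase call of G1 does not tell a resting cell from one in G1, so the low-share cells are not called quiescent here. The calls and the selection read the same cells, and free RNA in droplets can add UMIs to either band. No cell type that should lack cycle genes was in the library to measure that background.

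Outside the 12 selecting genes, 6876 genes had a mean of at least 20 CPM over both bands, and most were at about the same level in both. Their median log2 ratio was 0.01, with quartiles of -0.29 and 0.32. In the high-share cells 448 genes were at least 2-fold higher (6.52% of the genes compared) and 179 at least 2-fold lower (2.6%). At 1.5-fold the counts were 905 higher (13.2%) and 742 lower (10.8%). The selection used UMIs of the same cells, so these shares are the background for the lists below and describe the split. The most extreme genes stood on the higher side, as the scatter of all genes shows.

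**Figure D2:**
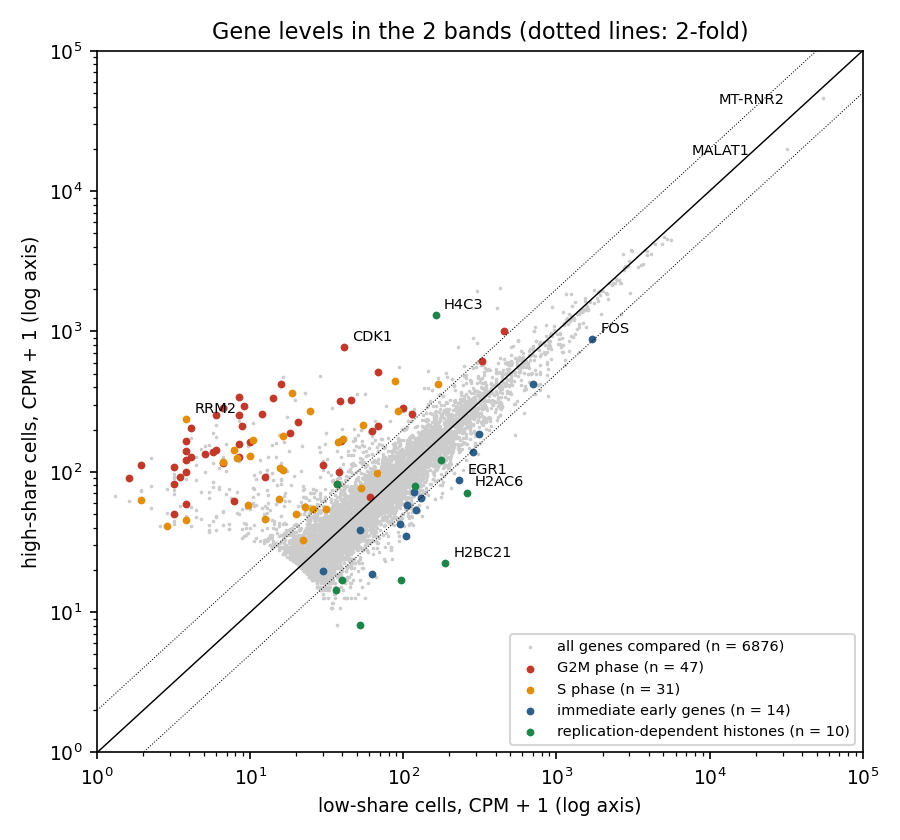
Each point is 1 of the 6876 genes compared, with its level in low-share cells on the x axis and in high-share cells on the y axis (CPM + 1, log axes), and colors mark 4 gene lists. The G2M phase and S phase genes lie above the upper dotted line with few exceptions, the 14 immediate early genes lie below the diagonal, and the histone genes split to both sides.

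The 10 genes with the highest ratios among those of at least 50 CPM in either band were all genes of nucleotide supply or mitosis. RRM2, the S phase subunit of ribonucleotide reductase, which makes deoxynucleotides, was highest (GRCh38 chromosome 2, 10120698 to 10211725). It had 267 UMIs in high-share cells (236 CPM) and 9 UMIs in low-share cells (2.8 CPM), a log2 ratio of 5.96 (5.45 to 7.54). After every cell was thinned to 2000 UMIs, 42.6% of high-share and 0.425% of low-share cells held an RRM2 UMI. KIF14, a kinesin of cytokinesis, had 129 UMIs in high-share cells and 3 in low-share cells, a log2 ratio of 5.89 (5.35 to 9.23). AURKB, the kinase of the chromosomal passenger complex, had 126 and 3 UMIs (5.86, 5.32 to 9.20). With so few UMIs on the low side the upper bounds of both ratios are far from the estimates. HJURP, the chaperone that loads the centromeric histone, had 101 and 2 UMIs (5.80, 5.28 to 10.2), and KNL1 of the outer kinetochore 140 and 4 (5.80). PKMYT1, an inhibitory kinase of CDK1, had 75 and 1 (5.68, 5.21 to 13.1), and NUF2 of the kinetochore 232 and 10 (5.65). Those left were KIF4A (5.46), DLGAP5 (5.44) and CDCA3 (5.44), which act in spindle function and mitotic entry.

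S phase genes were mostly higher. Of 31 S phase genes compared, 27 were at least 2-fold higher and 0 at least 2-fold lower, with a median log2 ratio of 2.33 beside 0.01 over all genes. Their summed level was 4588 CPM in high-share and 930 CPM in low-share cells. Of 38 genes of the replication origin and fork, 33 were at least 2-fold higher and 0 lower (median 2.73). ASF1B, a histone chaperone of the fork, was highest at 69 and 2 UMIs (log2 ratio 5.26, 4.71 to 9.69), and POLE4, an accessory subunit of a replicative polymerase, was lowest at 76.1 and 82.2 CPM. In homologous recombination and the Fanconi pathway, which repair broken and stalled forks, 18 of 20 genes were at least 2-fold higher and 0 lower (median 2.88). BRIP1, a helicase, was highest there with 61 and 4 UMIs (4.61), and the damage kinase ATR was at 54 and 57.3 CPM (-0.08).

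The enzymes of nucleotide supply covered a wide range of ratios. Of 23 genes compared, 10 were at least 2-fold higher and 0 at least 2-fold lower, with a median log2 ratio of 0.83. RRM2 and TK1 were highest. TK1, the thymidine kinase of S phase, was at 477 CPM in high-share and 27.4 CPM in low-share cells (4.07, 3.79 to 4.46). RRM1, the large subunit of ribonucleotide reductase, was at 441 and 87.2 CPM (2.33), and DTYMK, thymidylate kinase, at 202 and 46.7 CPM (2.09). Among genes of purine synthesis the ratios were -0.06 for ATIC, 0.21 for IMPDH2, 0.47 for GART, 0.61 for PAICS, 0.64 for PPAT and 0.83 for GMPS. RRM2B, the subunit of ribonucleotide reductase that serves cells outside S phase, went the other way, at 49.5 CPM in high-share and 85.9 CPM in low-share cells (-0.78, -1.24 to -0.38).

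Mitotic genes showed the largest ratios of the lists. Of 47 G2M phase genes compared, 45 were at least 2-fold higher and 0 at least 2-fold lower, with a median log2 ratio of 4.25, and their summed level was 10605 CPM in high-share and 1680 CPM in low-share cells. Of 25 mitotic kinases, cyclins and members of the anaphase-promoting complex, 24 were at least 2-fold higher (median 4.25). CDK1, the kinase that drives entry into mitosis (chromosome 10, 60778331 to 60794852), was at 776 and 39.9 CPM (4.25, 4.01 to 4.56). CDK1 UMIs were present in 64.5% of high-share and 8.07% of low-share cells after thinning. FOXM1, a transcription factor of G2 genes, was at 51.3 and 5.6 CPM (2.99). The exception was CDC27, a core subunit of the anaphase-promoting complex, at 92 and 65.1 CPM (0.49).

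The structures that move chromosomes followed. Of 34 kinetochore and spindle checkpoint genes 33 were at least 2-fold higher (median 3.84), and CENPX, which also acts in DNA repair, was lowest at 208 and 104 CPM (0.99). Of 32 genes of the spindle and kinesin motors 31 were at least 2-fold higher (median 4.44), and NUMA1, a structural protein of the spindle poles that sits in the nucleus of resting cells, was at 92.9 and 143 CPM (-0.61, -0.94 to -0.31). Condensin and cohesin genes, which fold and hold chromosomes, were at least 2-fold higher in 14 of 19 (median 1.85). ESCO2, the acetyltransferase that fixes cohesin in S phase, was highest at 174 and 3.11 CPM (5.41), while STAG2, a subunit of cohesin through the cycle, was at 185 and 215 CPM (-0.22). Tubulins and stathmin were at least 2-fold higher in 7 of 8 genes. TUBA1B was at 1928 and 301 CPM (2.67) and STMN1, which takes microtubules apart, at 554 and 92.8 CPM (2.56), and TUBA1A was lower, at 46 and 92.8 CPM.

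Of chromatin proteins and those of nuclear architecture, 20 of 32 were at least 2-fold higher and 0 lower (median 1.26). KPNA2, an importin, was highest at 283 and 33.3 CPM (3.05). H2AZ1, a histone variant whose gene has introns and a poly(A) tail, was at 2038 and 424 CPM (2.26), and HMGN3 was lowest at 176 and 204 CPM (-0.21). Together the 11 cell cycle lists, from S phase to tubulins, held 244 of the 6876 genes compared. They held 198 of the 448 genes that were at least 2-fold higher (44.2%). Another 93 were only in signatures of the study's cell clusters, and 157 were in none of these.

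**Figure D3:**
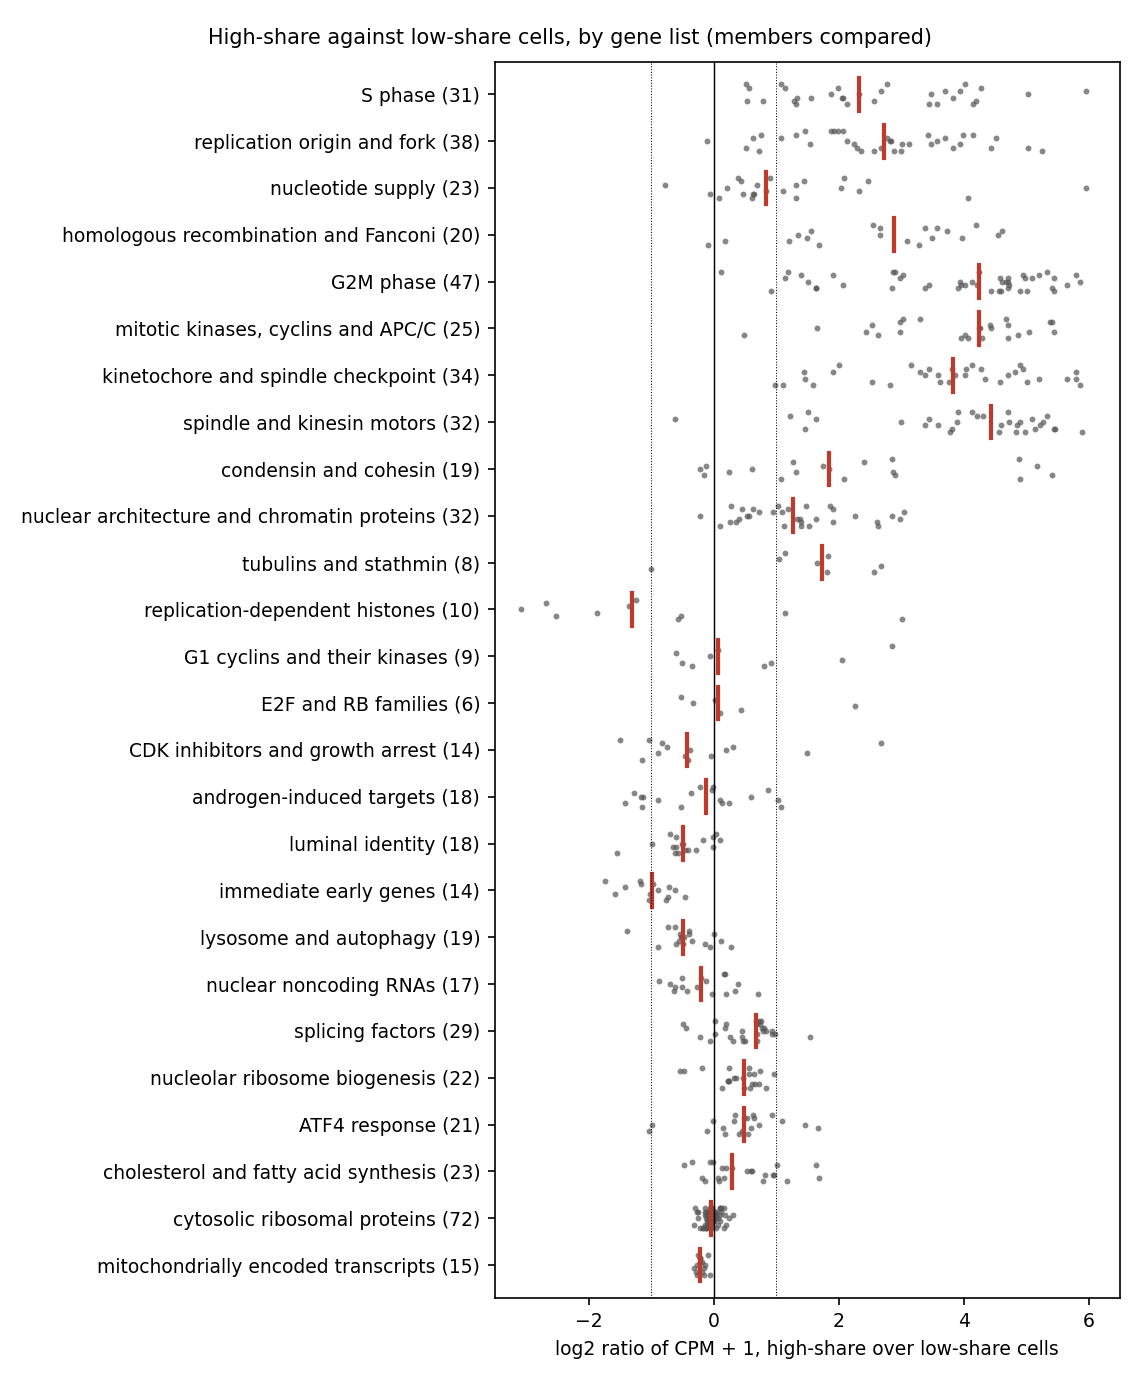
Each point is a gene with a mean of at least 20 CPM, placed by its log2 ratio of CPM + 1 in high-share over low-share cells, in 1 row per list with the number of genes in brackets, and red bars are list medians. The 11 cell cycle lists at the top have medians from 0.83 to 4.44, and the immediate early genes have a median of -0.99.

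Core histone genes were divided. Replication-dependent histone mRNAs normally end in a stem-loop in place of a poly(A) tail, so a poly(A)-primed library such as this one captures only part of them, and some of these genes also give polyadenylated transcripts. Of 10 genes of this list compared, 2 were at least 2-fold higher and 6 at least 2-fold lower, with a median log2 ratio of -1.30. H4C3 (chromosome 6, 26103933 to 26104337) was at 1307 CPM in high-share and 161 CPM in low-share cells (3.01, 2.87 to 3.17), from 1478 and 518 UMIs, of which the cell with the most held 92. SLBP, which binds the stem-loop, was at 81.4 and 36.1 CPM (1.15). H2BC21 (chromosome 1, 149884459 to 149886682) was the gene with the lowest ratio of all genes with at least 50 CPM in either band, at 21.2 CPM (24 UMIs) in high-share and 186 CPM (598 UMIs) in low-share cells (-3.07, -3.79 to -2.55). H2BC5 was at 7.08 and 51.1 CPM (-2.69), H4C8 at 15.9 and 95.6 CPM (-2.51) and H2AC6 at 69.9 and 258 CPM (-1.87, -2.24 to -1.55). These 4 genes were among the 10 lowest ratios overall. After thinning, 3.55% of high-share cells held an H2BC21 UMI (exact interval 1.16 to 8.08%) and 29.3% of low-share cells (25.2 to 33.6%). When cells were ranked on the 6 S genes alone the H2BC21 ratio was -2.05. The summed level of the list hid this division, at 1822 and 1264 CPM, since H4C3 made up most of it in high-share cells.

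The regulators of the G1 to S step were mixed. Of 9 G1 cyclins and their kinases, 2 were at least 2-fold higher and 0 at least 2-fold lower (median 0.07). CDK2, the kinase of S phase entry, was at 115 and 14.9 CPM (2.86, 2.46 to 3.45), and its partner CCNE2, a cyclin E, at 62.8 and 14.3 CPM (2.06). When cells were ranked on the 6 G2M genes alone the CCNE2 ratio was 1.10. The kinase CDK4, which begins the release of E2F, was at 263 and 149 CPM (0.81, 0.60 to 1.03). Its cyclin CCND1 was at 374 and 474 CPM (-0.34, -0.50 to -0.19), so the cyclin D1 gene was not higher in the cells that expressed S and G2M genes. Of 6 genes of the E2F and RB families RBL1, the p107 gene, was at least 2-fold higher at 42.5 and 8.09 CPM (2.26), while RBL2, the p130 gene of resting cells, was at 131 and 164 CPM (-0.32). E2F1 was under the minimum of 20 CPM and is not compared.

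Inhibitors of the cycle were not simply higher in low-share cells. CDKN1A, the p21 gene, was at 71.7 CPM in high-share and 62 CPM in low-share cells (0.21, -0.18 to 0.59), and CDKN1B, the p27 gene, at 135 and 108 CPM (0.31, 0.03 to 0.59). By counting error alone both intervals leave out a 2-fold excess in the low-share cells, but the spread between cells is not in them. CDKN2D, which blocks CDK4 and CDK6, was at 37.2 and 4.98 CPM (2.67), and BTG3, an antiproliferative gene, at 113 and 39.5 CPM (1.49). Of 14 genes of growth arrest compared, these 2 were at least 2-fold higher and 3 at least 2-fold lower. The 3 were YPEL5 at 28.3 and 81.6 CPM (-1.49), BTG1 at 42.5 and 95 CPM (-1.14) and FOXO3, a transcription factor of quiescent cells, at 65.5 and 135 CPM (-1.03). In the MYC network, 2 repressors lay on opposite sides. MXD3 was at 53.1 and 9.03 CPM (2.43) and MXD4 at 21.2 and 52.6 CPM (-1.27), while MYC itself was at 119 and 150 CPM (-0.33, -0.62 to -0.05).

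Immediate early genes were lower in high-share cells as a group. These genes, mostly transcription factors such as FOS and JUN, are switched on within minutes of growth factor or stress signals. All 14 genes compared had a log2 ratio below 0, 7 were at least 2-fold lower, 13 at least 1.5-fold lower and 0 higher at either fold, with a median of -0.99. Their summed level was 2131 CPM in high-share and 4101 CPM in low-share cells, a log2 ratio of -0.94 (-1.01 to -0.88). FOS (chromosome 14, 75278826 to 75282230) was at 875 and 1710 CPM (-0.97, -1.07 to -0.87). EGR1, a zinc finger factor, was at 85.8 and 229 CPM (-1.41), JUNB at 33.6 and 102 CPM (-1.58) and ZFP36, which shortens AU-rich mRNAs, at 17.7 and 61 CPM (-1.73, -2.53 to -1.12). The smallest difference was in BTG2, at 37.2 and 51.4 CPM (-0.46, -0.99 to 0.03). Cells varied widely within both bands. The summed level in a cell was 0 to 12433 CPM in high-share cells (median 1844) and 0 to 14324 CPM in low-share cells (median 4082), so the ranges overlapped nearly in full. The list ratio was between -0.99 and -0.81 under 18 alternatives of cell filter, scaling and ranking, which included cells of at most 15% mitochondrial UMIs and ranks within bins of depth. ZC3H12A, a ribonuclease that also cuts inflammatory mRNAs, was also among the 10 lowest ratios, at 11.5 and 54.8 CPM (-2.16). ZFP36, above, was one of these 10 as well. The others were ANKRD37 (-1.91), LINC01137 (-1.88), AL357139.2 (-1.83) and COL5A2 (-1.82).

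Genes of luminal identity, the secretory cell type of the prostate, were modestly lower in high-share cells. Of 18 compared, 0 were at least 1.5-fold higher, 7 at least 1.5-fold lower and 1 at least 2-fold lower, with a median log2 ratio of -0.49. Their summed level was 6666 and 9864 CPM (-0.57, -0.60 to -0.53), with 2656 to 17664 CPM in a high-share cell (median 6936) and 4001 to 22513 CPM in a low-share cell (median 9699). ACPP, prostatic acid phosphatase, was at 31 and 92.2 CPM (-1.54, -2.12 to -1.07). STEAP2, a metalloreductase, was at 576 and 1139 CPM (-0.98), and MME, the cell surface peptidase neprilysin (chromosome 3, 155024124 to 155183704), at 1889 and 3044 CPM (-0.69, -0.76 to -0.62). MME UMIs were found in 99.3% of high-share and 99.8% of low-share cells before thinning, so its difference was one of level. Of the keratins, KRT8 was at 124 and 188 CPM (-0.60, -0.88 to -0.34) and KRT18 at 409 and 458 CPM (-0.16). Of the adhesion and junction genes, CLDN4 was at 118.5 and 168 CPM (-0.50, -0.79 to -0.23), EPCAM at 175 and 171 CPM and CLDN7 at 206 and 192 CPM. HOXB13, a homeobox factor of the prostate, was at 294 and 413 CPM (-0.49) and FOXA1, a pioneer factor, had a ratio of -0.41.

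Androgen-induced targets did not move together. Of 18 compared, 2 were at least 2-fold higher and 5 at least 2-fold lower, and the median log2 ratio was -0.12. KLK4, a kallikrein protease (chromosome 19, 50906351 to 50911395), was at 76.1 CPM in high-share and 204 CPM in low-share cells (-1.41, -1.76 to -1.10). TMPRSS2, a membrane protease, was at 50.4 and 112 CPM (-1.14), and PMEPA1, which dampens TGF-beta signals, at 11.5 and 29.3 CPM (-1.28). NDRG1 and ZBTB16 were also at least 2-fold lower, with ratios of -1.15 and -1.14. KLK3, the gene of prostate-specific antigen (chromosome 19, 50854915 to 50860764), lay on the other side, at 154 and 71.9 CPM (1.09, 0.81 to 1.39). Few cells carried this difference. KLK3 UMIs were found in 41 of 141 high-share cells, and 35 of their 174 UMIs came from 1 cell. Without the cell with the most KLK3 UMIs in each band the ratio was 0.92, without cells with an unread last base 0.75, and with cells ranked on the 6 S genes 0.41. FKBP5, a cochaperone, was at 47.8 and 25.5 CPM (0.88, 0.38 to 1.42), and MPHOSPH9, first known as an M phase phosphoprotein, at 86.7 and 41.7 CPM (1.04). KLK2 was at 25.7 and 25.8 CPM (-0.01, -0.67 to 0.62).

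The listed long noncoding RNAs took, in sum, a smaller share of UMIs in high-share cells (log2 ratio -0.65), and MALAT1 made up most of that sum. The median of the list was only -0.20, with 6 genes above 0 and 11 below. MALAT1, an RNA of nuclear speckles, was at 19893 and 32138 CPM (-0.69, -0.71 to -0.67), and NEAT1, the scaffold of paraspeckles, at 421 and 776 CPM (-0.88). GAS5, a host gene of small nucleolar RNAs named for growth arrest, was at 711 and 1109 CPM (-0.64). The list was not uniform, since SNHG1 was at 154 and 93.4 CPM (0.71), and of 17 genes compared 1 was at least 1.5-fold higher and 4 lower. Mitochondrially encoded transcripts were lower too, at 77505 and 91500 CPM in all (-0.24), with all 15 below 0 and none past 1.5-fold. All these values are shares of a cell's UMIs. Totals without mitochondrial and ribosomal protein genes moved the median of all genes only to -0.02.

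Some growth-related lists showed smaller ratios of the same sign as the cycle genes, and others did not. Of 29 splicing factors, 15 were at least 1.5-fold higher and 0 lower (median 0.69), and SNRPB, a core protein of spliceosomal snRNPs, was highest at 396 and 136 CPM (1.54, 1.35 to 1.74). SRSF6 was lowest at 129 and 182 CPM (-0.49). Of 22 nucleolar genes of ribosome biogenesis, 7 were at least 1.5-fold higher and 0 lower (median 0.48), led by FBL, the rRNA methyltransferase fibrillarin, at 417 and 214 CPM (0.96). The cytosolic ribosomal proteins themselves were at 98431 and 101585 CPM, with 0 of 72 past 1.5-fold (median -0.05). Of 25 translation factors 13 had a log2 ratio above 0 and 12 below, with a summed log2 ratio of -0.12. Of 23 genes of cholesterol and fatty acid synthesis 10 were at least 1.5-fold higher and 0 lower (median 0.30). FADS1, a desaturase, was at 139 and 42.3 CPM (1.69). In the ATF4 response, which raises amino acid supply, 8 of 21 were at least 1.5-fold higher and 2 lower (median 0.49). SLC7A11, the cystine transporter, was at 90.2 and 27.7 CPM (1.67), while DDIT3, a stress factor of the same pathway, was at 87.6 and 174 CPM (-0.99). Lysosome and autophagy genes were lower, with 5 of 19 at least 1.5-fold lower and 0 higher (median -0.49), and GABARAPL1, which builds autophagosomes, was lowest at 19.5 and 52.3 CPM (-1.38).

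Markers of stromal, endothelial and immune cells were nearly absent, as in a cell line. Stromal markers were found for 7 of 11 genes listed, with 11.5 CPM in high-share and 14 CPM in low-share cells in all, endothelial markers for 2 of 7 genes, with 0 and 3.74 CPM, and immune markers for 2 of 13 genes, with 0.885 and 0 CPM. Basal epithelial markers were at 56.6 and 54.5 CPM in all. Neuroendocrine markers were found for 11 of 17 genes, at 365 and 483 CPM, nearly all from SYT4, a synaptotagmin, at 306 and 422 CPM (-0.46). Their level in a cell ran from 0 to 7379 CPM in low-share cells.

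Signatures used in the study were read in the same way, after the selecting genes had been removed. The cluster markers came from other LNCaP libraries of the study, Persist was a published gene set, and PROSGenesis came from published mouse prostate luminal cells. Of 13 genes of the Persist signature compared, 10 were at least 2-fold higher and 0 lower (median 4.29). Of the 13, 7 were also in the S or G2M lists, and of the 6 outside them 3 were at least 2-fold higher (median 1.17). Of 41 genes of PROSGenesis 0 were higher and 2 lower (median -0.20). Markers of Cluster 11 were at least 2-fold higher in 198 of 253 genes. This was not particular to Cluster 11, since the counts were 107 of 153 for Cluster 5, 62 of 75 for Cluster 8 and 200 of 247 for Cluster 9. Those of Cluster 3 were so in 0 of 101, with 8 at least 2-fold lower. Cluster 10 lay near the middle, with 6 higher and 1 lower of 88. The signatures with high ratios share genes with the S and G2M lists. Outside those lists, markers of Cluster 11 were at least 2-fold higher in 147 of 200 genes (median 1.81). For Clusters 5, 8 and 9 these counts were 76 of 121, 42 of 55 and 150 of 196. The other cell cycle lists were not taken out for these counts. Outside the S and G2M lists, 16 of 17 genes of the spindle and kinesin motors were also at least 2-fold higher. A rise of the markers beyond cycle genes therefore cannot be read from these counts.

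Split into 4 bands by share, the cells gave graded levels for some genes and steps for others. RRM2 was at 2.8, 16.8, 210 and 293 CPM in the lowest 50%, the next 35%, the next 10% and the top 5% of cells by share. CDK1 was at 39.9, 89.4, 587 and 1176 CPM in the same order. H4C3 differed mainly at 1 step, with 161, 264, 1293 and 1339 CPM. PCNA, a selecting gene whose rise the selection itself set, was at 59.5, 211, 708 and 751 CPM. H2BC21 went down throughout, from 186 and 129 to 29.9 and 2.76 CPM, the last being 1 UMI in 47 cells. KLK4 was at 204, 182, 89.8 and 46.9 CPM and MME at 3044, 2518, 1937 and 1786 CPM. The immediate early gene FOS was at 1710, 1584, 798 and 1038 CPM, so its level in the top 5% was above that of the next 10%. KLK3 also turned, at 71.9, 88.9, 171 and 119 CPM. These bands held 471, 331, 94 and 47 cells.

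**Figure D4:**
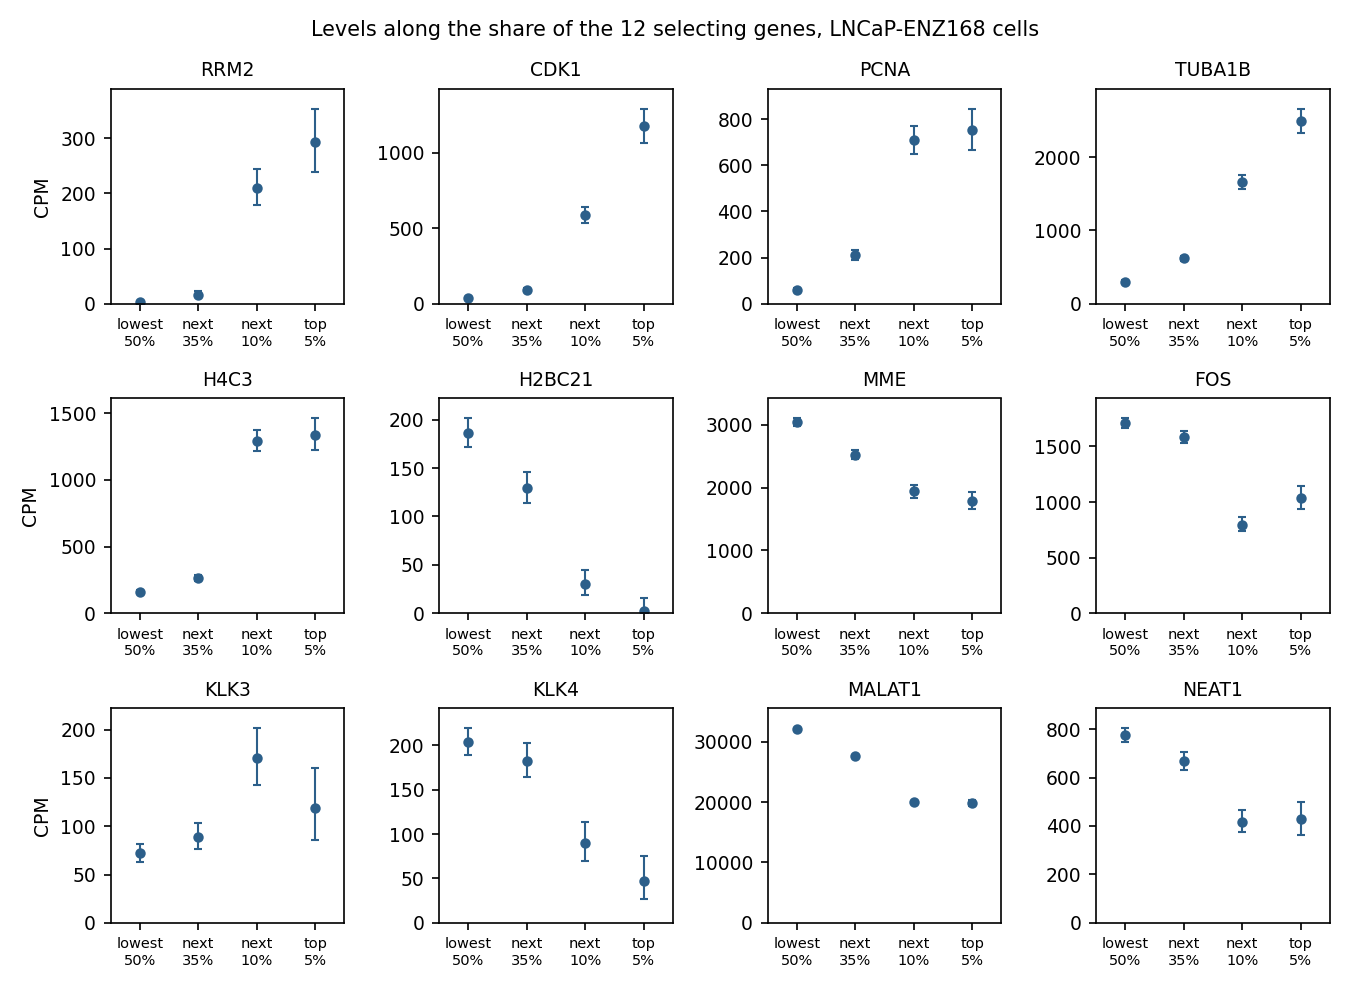
Each panel gives the level of a gene (CPM, y axis from 0) in the lowest 50%, next 35%, next 10% and top 5% of LNCaP-ENZ168 cells by share, with exact Poisson 95% intervals. RRM2 and CDK1 are highest in the top 5%, H4C3 is level between the upper 2 bands, H2BC21 goes from 186 to 2.76 CPM, and FOS and KLK3 turn between the upper bands.

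The high-share cells were not of 1 kind. In 97 of the 141 cells (68.8%) the 6 G2M genes of the selection had more UMIs than the 6 S genes, in 42 (29.8%) fewer, and in 2 the counts were equal. Depth and mitochondrial share were close in G2M-led and S-led cells, as these are called here, with medians of 6572 and 6654 UMIs and of 7.14% mitochondrial UMIs in each. By phase calls without the selecting genes, 92 of 97 G2M-led cells were in G2M and 34 of 42 S-led cells in S. Of 6812 genes compared between them, 176 were at least 2-fold higher in G2M-led cells (2.58%) and 235 at least 2-fold lower (3.45%). Here 777588 UMIs stood against 344211, so single genes are less well measured than between the bands.

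CCNE2, which peaks as cells enter S phase, was the gene with the lowest ratio of G2M-led over S-led cells, at 21.9 and 154 CPM (-2.76, -3.70 to -2.01). FAM111B, a protease gene of S phase, was at 103 and 514 CPM (-2.31), UNG, which removes uracil from new DNA, at 28.3 and 116 CPM, CDCA4 at 12.9 and 58.1 CPM (-2.09) and WDR76 at 12.9 and 55.2 CPM (-2.02). On the other side CDC25B, a phosphatase that starts mitosis, was at 55.3 and 5.81 CPM (3.05), from 43 and 2 UMIs. CENPE, the kinetochore motor, was at 347 and 46.5 CPM (2.88) and SGO2, which guards cohesin at centromeres, at 211 and 49.4 CPM (2.07). SPRYD7 and POLR3GL, with 40 and 50 UMIs in G2M-led cells, completed the 5 highest, and no role of theirs in the cycle is stated here. S phase genes were at least 2-fold lower in 18 of 36 and higher in 1, and G2M phase genes at least 2-fold higher in 21 of 47 and lower in 0.

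Genes that were all higher in high-share cells, though by unlike ratios, differed here. RRM2 was at 184 CPM in G2M-led and 352 CPM in S-led cells, whereas RRM1 was at 442 and 444 CPM. SLBP was at 57.9 and 137 CPM, but H4C3 was at 1291 and 1339 CPM. BTG3 was at 81 and 183 CPM and CDKN2D at 45 and 17.4 CPM, so these inhibitors, both higher in high-share cells, differed in opposite directions. CDKN2D had only 42 UMIs in all high-share cells. Immediate early genes, luminal genes and androgen targets had summed log2 ratios of -0.10, -0.13 and 0.03. Of the last, 2 of 17 were at least 2-fold higher in G2M-led cells and 1 lower, and KLK3 was at 189 and 78.4 CPM.

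**Figure D5:**
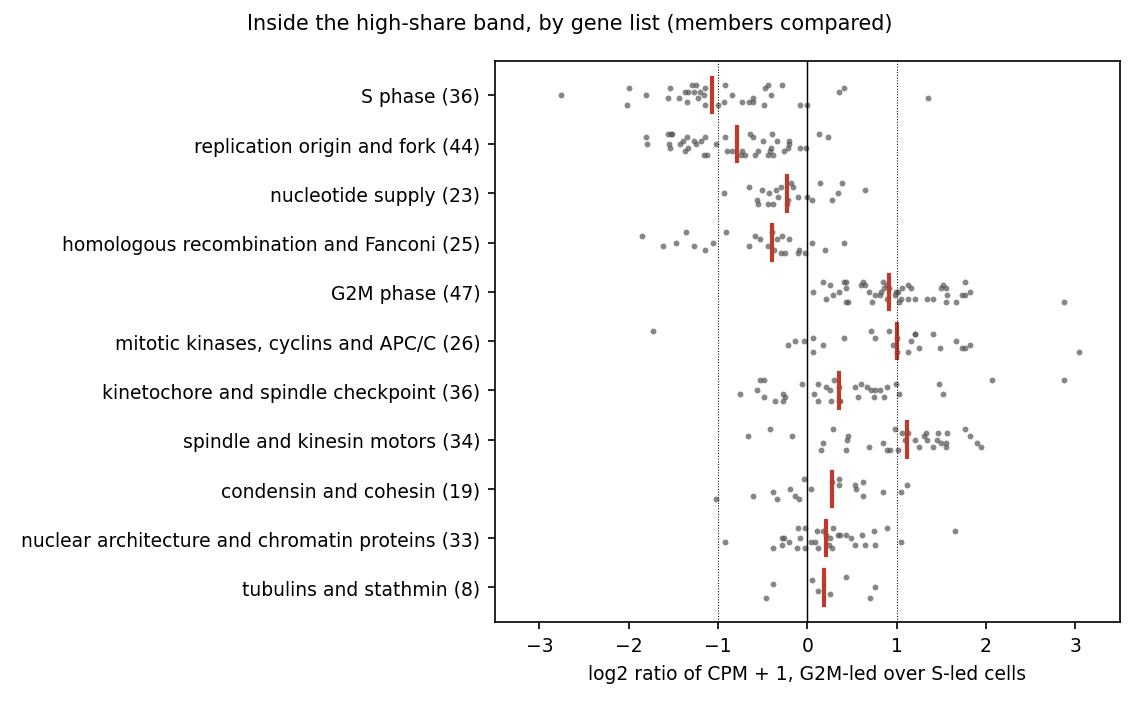
Each point is a gene placed by its log2 ratio of CPM + 1 in the 97 G2M-led over the 42 S-led high-share cells, in 1 row per list with the number of genes compared in brackets, and red bars are medians. S phase genes have a median of -1.07, G2M phase genes of 0.91, and genes of the spindle and kinesin motors of 1.12.

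The promoters of these genes differ in the elements they hold. RefSeq promoters (GRCh38.p14, 250 bases before to 50 after a start) were searched on both strands for TTTGAA or TTCGAA of the cell cycle homology region, for CCAAT, the box bound by NF-Y, and for the E2F sites TTTCCCGC, TTTCGCGC, TTTGCCGC and TTTGGCGC. Of the 448 genes at least 2-fold higher, 369 matched the table, with 502 promoters. The homology region was in 30.3% of these, in 11.7% of promoters of genes at least 2-fold lower, in 12% of those of all genes compared and in 16.4% of all 35116 promoters. CCAAT was in 49.8%, 34.7%, 36.6% and 34.6%, and an E2F site in 13.1%, 4.23%, 5.71% and 3.31%, in the same order. The split by phase was wider. Of 58 promoters of genes that were also at least 2-fold higher in G2M-led cells, 50% held the homology region and 1.72% an E2F site, and of 33 promoters of genes at least 2-fold higher in S-led cells 6.06% held the homology region and 33.3% an E2F site. A match is a description of the letters and not a site shown to be bound.

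Promoters of 5 genes are shown, chosen after their values were seen, for the mitotic genes CDCA3 (chr12:6851237-6851536, minus strand) and KIF14 (chr1:200620702-200621001, minus strand), for RRM2 (chr2:10122489-10122788, plus strand) and MCM6 (chr2:135876394-135876693, minus strand) of S phase, and for H2BC21 (chr1:149886633-149886932, minus strand), all on GRCh38 and 5′ to 3′. MCM6, a helicase subunit outside the selecting genes, was at 163 and 36.4 CPM in the bands (2.13) and at 91.3 and 323 CPM in G2M-led and S-led cells. Capitals mark the homology region and CCAAT in CDCA3 and KIF14, CCAAT in RRM2 and H2BC21, and E2F sites in MCM6.
CDCA3: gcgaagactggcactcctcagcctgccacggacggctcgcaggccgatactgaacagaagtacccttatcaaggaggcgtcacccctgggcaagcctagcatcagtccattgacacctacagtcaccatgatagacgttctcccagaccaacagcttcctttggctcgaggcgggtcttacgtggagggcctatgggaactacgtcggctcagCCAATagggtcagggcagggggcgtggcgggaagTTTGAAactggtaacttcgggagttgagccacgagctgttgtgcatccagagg
KIF14: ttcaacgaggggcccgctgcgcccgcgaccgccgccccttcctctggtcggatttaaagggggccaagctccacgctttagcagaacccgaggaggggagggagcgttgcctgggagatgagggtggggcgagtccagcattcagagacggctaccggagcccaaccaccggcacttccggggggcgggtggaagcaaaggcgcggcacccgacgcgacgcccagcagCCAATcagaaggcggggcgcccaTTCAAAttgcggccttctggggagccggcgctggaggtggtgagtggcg
RRM2: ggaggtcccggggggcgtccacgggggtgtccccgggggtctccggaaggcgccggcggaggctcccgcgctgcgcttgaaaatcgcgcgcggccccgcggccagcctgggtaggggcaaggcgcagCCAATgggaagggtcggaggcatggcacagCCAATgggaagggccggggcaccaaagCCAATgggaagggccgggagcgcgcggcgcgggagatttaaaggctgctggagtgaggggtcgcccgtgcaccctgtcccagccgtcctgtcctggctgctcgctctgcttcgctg
MCM6: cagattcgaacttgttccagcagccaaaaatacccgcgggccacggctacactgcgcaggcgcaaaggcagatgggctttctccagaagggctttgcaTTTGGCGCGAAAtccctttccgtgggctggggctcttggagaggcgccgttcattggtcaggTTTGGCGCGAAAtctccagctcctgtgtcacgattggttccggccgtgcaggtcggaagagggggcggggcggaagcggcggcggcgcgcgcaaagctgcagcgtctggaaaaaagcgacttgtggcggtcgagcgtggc
H2BC21: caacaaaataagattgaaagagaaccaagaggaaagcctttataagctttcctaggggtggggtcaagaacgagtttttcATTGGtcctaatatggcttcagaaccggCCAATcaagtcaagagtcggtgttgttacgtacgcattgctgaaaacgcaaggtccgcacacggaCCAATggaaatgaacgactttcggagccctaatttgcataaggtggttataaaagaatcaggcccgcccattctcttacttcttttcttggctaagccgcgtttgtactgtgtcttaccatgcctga
CDCA3 and KIF14 each had a CCAAT box a short way before a homology region. The RRM2 promoter shown was picked from the 2 in the table by its number of CCAAT matches. It had 3 CCAAT boxes in a row and neither of the other elements. Each of the marked runs of MCM6 joins TTTGGCGC with an overlapping TTTCGCGC of the other strand. MCM6 also held 1 match to the homology region and 2 to CCAAT, which are not in capitals. H2BC21, the gene with the lowest ratio, also had 3 CCAAT boxes and 0 matches to the homology region or the E2F sites.

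The same filter and selection were applied within each VCaP library for values side by side. In VCaP parental 997 cells were kept, with 149 high-share and 498 low-share cells, and in VCaP-ENZ48 917 were kept, with 137 and 458. The share in high-share cells was 1.07 to 2.60% in VCaP parental (median 1.39%) but 0.0593 to 2.38% in VCaP-ENZ48 (median 0.12%), against a median of 0.518% in LNCaP-ENZ168. High-share cells of VCaP-ENZ48 were also shallower than low-share cells, with medians of 7137 and 13875.5 UMIs, and they held a median of 9 UMIs of the 12 genes. In VCaP parental 299 of 5289 genes were at least 2-fold higher (5.65%) and 64 lower (1.21%), and in VCaP-ENZ48 226 of 5534 were higher (4.08%) and 5 lower (0.0904%). Differences between the libraries were not tested.

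G2M phase genes were at least 2-fold higher in high-share cells of all 3 libraries, in 47 of 48 compared in VCaP parental and 33 of 38 in VCaP-ENZ48. S phase genes were so in 22 of 27 in VCaP-ENZ48, but in VCaP parental 4 were higher and 5 lower of 27. Of the 6 S genes of the selection, 5 were lower in the high-share cells of VCaP parental, with PCNA at 171 and 235 CPM (-0.46), and TYMS was higher at 103 and 27 CPM (1.89). MCM5 was at 3.6 and 19.4 CPM there, a mean under 20 CPM. H4C3 had ratios of 1.52 in VCaP parental and 2.37 in VCaP-ENZ48. H2BC21 had a mean under 20 CPM in both, with 1.64 and 12.8 CPM in VCaP parental and 13.8 and 23.6 CPM in VCaP-ENZ48. Immediate early genes gave other values there. Of 12 compared, 1 was at least 2-fold lower in VCaP parental and 0 in VCaP-ENZ48, and the summed log2 ratios were 0.07 (0.03 to 0.11) and -0.29 (-0.35 to -0.24), beside -0.94 in LNCaP-ENZ168. CDKN1A and CDKN1B, near 0 in LNCaP-ENZ168, had ratios of 1.70 and 1.88 in VCaP parental and of 1.07 and 0.66 in VCaP-ENZ48.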

How the data were processed

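Single-cell RNA-seq by Drop-seq was deposited as 1 library for each of VCaP parental, VCaP-ENZ48 and LNCaP-ENZ168. The authors aligned reads to GRCh38 with STAR and made the deposited UMI counts per gene and barcode with Gencode annotation, Picard and the Drop-seq tools, expecting 1000 cells per sample. The cell filters stated by the study are for its Cell Ranger libraries, and one for these libraries is not given in the sources used here. Files held 6513423 to 19533049 UMIs, and kept LNCaP-ENZ168 cells had a median of 5390. Gene positions were read from a newer Gencode release of that build.

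Cells were selected on measured values, and the selection and the gene lists were chosen with earlier results of these data known. UMIs were summed per band and scaled to CPM. Ratios are log2 of CPM + 1, for genes whose mean over the bands reached 20 CPM. Intervals are exact conditional (ratios), Poisson (levels) and Clopper-Pearson (shares) at 95%. Cells are not replicates, so no test was made. In all 50 lists were used, 8 of them signatures used in the study, and the other 42 included the S and G2M lists of Seurat. Cells were thinned without replacement to 2000 UMIs for shares. Phases came from CellCycleScoring of Seurat. Named genes were the 12 selecting genes, the 10 highest and 10 lowest ratios where either band reached 50 CPM, the most abundant, highest and lowest member of each list, 22 genes chosen by name, and the 5 highest and 5 lowest ratios of G2M-led over S-led cells. Other list members were named after their values were seen, and some genes are not reported here. Steps were tested on simulated data. Alternatives covered the pseudocount, minimum, scaling (TMM of edgeR, median of ratios, totals), weighting, thinning, cell filters, band limits, selecting genes and depth bins. Statistics were computed in R 4.3.3 for phases (Seurat 5.3.0, Matrix 1.6.5) and TMM (edgeR 4.0.16). All else ran in Python 3.11.15 on scipy 1.17.1, numpy 2.4.6 and pandas 2.3.3, and plots were drawn by matplotlib 3.10.9.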

Additional observations from a re-analysis of the deposited data

Results flagged for a closer look

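Among the named genes outside the selection, 5 had ratios past 1.5-fold of opposite sign in LNCaP-ENZ168 and VCaP parental, with counting intervals that left out 0 in both. The difference between the libraries was not tested. CCNE2 had a log2 ratio of 2.06 in LNCaP-ENZ168 and -1.55 in VCaP parental. FAM111B had 4.76 and -0.83, and UNG 1.29 and -2.22. These 3 are genes of S phase, and of the 6 S genes of the selection 5 were also lower in the high-share cells of VCaP parental, all but TYMS. CCNG2, a cyclin G gene, had -0.60 and 1.12, and DDIT3, a stress factor, -0.99 and 0.78. Between LNCaP-ENZ168 and VCaP-ENZ48 no named gene did so.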

How the results depend on the processing

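All 96 named genes past 1.5-fold in the LNCaP-ENZ168 bands kept their direction under 19 alternatives. Many of them were named for extreme ratios in these same cells, and the alternatives largely reuse these cells. Counts of genes moved with the minimum. At 10 CPM 318 genes were at least 2-fold lower and 1126 at least 1.5-fold lower. At 50 CPM 230 were higher and 72 lower at 2-fold, and 458 and 346 at 1.5-fold. With no minimum these counts were 1381 and 1669, and 3572 and 4858. Thinned cells gave 321 genes at least 2-fold lower, and the share over the 6 S genes 108, beside 179. Summed log2 ratios of the S phase and G2M phase lists were 2.21 and 2.59 in thinned cells, 2.37 and 2.76 with at least 4000 UMIs, 2.40 and 2.97 for the top 10% against the lowest 30%, and 2.05 and 2.44 against all other cells. The G2M list was at 2.184 with the share over the S genes, 2.74 with ranks within 3 bins of depth and 2.54 without barcodes ending in an unread base, an alternative chosen after seeing the data, as was leaving out the cell with the most UMIs of a gene. The S list was at 2.02 with the share over the G2M genes. At 50 CPM 62 genes were higher and 56 lower in G2M-led cells. Apart from the genes or cells that each alternative removes, the cause was not tested. No paired analysis was possible because both bands are cells of the same library. With 1 library, values describe these cells only. The minimum of 20 CPM was a choice, and lower genes rest on few UMIs.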

Other observations

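The ATPase and electron transport genes of the nucleus were level between the bands of LNCaP-ENZ168, with 1 of 46 at least 1.5-fold higher and 0 lower. Of 17 heat shock protein genes compared 16 had a log2 ratio above 0 and 2 were at least 1.5-fold higher, with a median of 0.25 and HSPH1, a disaggregase subunit, highest at 234 and 138 CPM (0.76). Proteasome genes had a median of 0.17, with 3 of 28 at least 1.5-fold higher and 0 lower. Over all genes compared 13.2% were at least 1.5-fold higher and 10.8% lower, so the heat shock and proteasome counts of higher genes were near that share. Of 12 interferon response and MHC class I genes compared 2 were at least 1.5-fold lower and 0 higher, and HLA-E was lowest at 21.2 and 50.4 CPM (-1.21, -1.93 to -0.62). Of 8 BCL2 family genes 2 were at least 2-fold higher, and PMAIP1, a death-promoting member, was highest at 79.6 and 17.4 CPM (2.13). The UGT2B genes, which inactivate androgens, were level, with UGT2B17 at 529 and 575 CPM and UGT2B15 at 363 and 331 CPM.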
